A study of Mus musculus with 16 samples.

Results

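The cadherin superfamily genes of the mouse cochlea described here were all genes whose symbol is Cdh with a number, Pcdh with a number, Fat1 to Fat4, Dchs1 or Dchs2, which left out the clustered protocadherins. The rule used gene symbols alone and found 40 genes among the 47729 genes with values. Of these, 37 reached the level needed for testing, among 16994 genes tested in all, and Cdh7, Cdh12 and Cdh16 did not. By role they comprised 5 type I and 13 type II classical cadherins, 4 other cadherins, 2 tip link cadherins, 8 delta protocadherins, 2 other nonclustered protocadherins and 6 Fat and Dachsous genes.

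The libraries came from a RiboTag experiment on cochleae of postnatal day 4 (P4) mice. Control mice were GLAST-CreERT/+; Rpl22-HA/+ and DTR mice were Lgr5-DTR/+; GLAST-CreERT/+; Rpl22-HA/+, so that both carried the tamoxifen-inducible Cre and the HA-tagged ribosomal protein, and the DTR mice also carried the diphtheria toxin (DT) receptor knocked in at Lgr5. The study's results state that both genotypes received DT and tamoxifen at P1, while the sample labels call the controls untreated. Each replicate was a pool of 8 cochleae from 4 mice freed of lateral wall, spiral ganglia and Reissner's membrane, and each pool gave an input library from 5% of the homogenate and an IP library from ribosomes pulled down through the HA tag from the other 95%, so that there were 4 libraries of each sample type (input and IP) for each genotype (control and DTR). GLAST-CreERT recombines in cells of the greater epithelial ridge (GER) and in inner phalangeal cells, and not in all of them, so an IP library is a sample enriched for, not limited to, ribosomes of those cells.

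Cadherins are calcium-dependent adhesion proteins. Classical cadherins bind their like on a neighbouring cell and link to actin through beta-catenin and alpha-catenin at adherens junctions. Nonclustered protocadherins have other cytoplasmic tails, several of which bind the WAVE actin regulatory complex, and Fat and Dachsous are giant cadherins that bind each other between cells and act in planar cell polarity and growth control. In the organ of Corti, hair cells and supporting cells form a mosaic held by adherens junctions, and Cdh23 and Pcdh15 form the tip link that pulls on the mechanotransduction channel of the hair bundle.

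Libraries held 28089836 to 41966310 reads over genes, so that 3 reads corresponded to 0.0715 to 0.107 CPM (counts per 1000000 reads). Values per library are given as deposited CPM in the order of replicates 1 to 4. Fold changes (LFC) are differences of log2(quantile-normalized CPM + 0.5) ± standard error from limma with 4 libraries per group, and a gene passed the test at a Benjamini-Hochberg adjusted p under 0.05 over all 16994 genes. As a check of the labels, Lgr5, the gene carrying the toxin receptor, had LFC -1.94, adjusted p = 3.47e-08 in DTR IP against control IP and -2.004, adjusted p = 2.23e-08 in DTR input against control input. Slc1a3, which encodes GLAST, was not higher in IP (LFC -0.20, adjusted p = 0.102 in control IP against control input). In DTR IP it was lower than in DTR input (LFC -0.27, adjusted p = 0.0299). Of 11 markers of supporting cells and GER, 4 were higher and 3 lower in control IP than in input, and 1 was higher and 4 lower in DTR IP. No list of cell type markers examined had a gene at 0 in every library.

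Per kilobase of exon, Cdh1 and Cdh4 were the most abundant members. In control input the level of Cdh1 was 93.5 ± 9.88 CPM per kb (mean ± SD, n = 4), ahead of Cdh4 at 36.2 ± 5.41, Cdh11 at 14.8 ± 0.763 and Cdh2 at 12.9 ± 0.376, and the SDs of neighbours in this order did not reach each other. In control IP the levels of Cdh4 (54.04 ± 4.21 CPM per kb) and Cdh1 (53.2 ± 2.08) differed by less than their spread, and Cdh2 followed at 12.3 ± 1.94 ahead of Cdh11 at 7.65 ± 0.938. Cdh2 stood at rank 3 of 40 per length in control IP and at rank 8 in DTR IP, and Cdh22 at rank 28 and at rank 16. Below 1 CPM per kb in control IP, most neighbours in the order, such as Fat2, Cdh24 and Cdh19, had overlapping ranges. At the bottom, Cdh16, a kidney cadherin, had no read in 12 of the 16 libraries, where 3 reads set the limit, and at most 8 reads in the others, and Cdh7 and Cdh12, which are neuronal type II cadherins, had 0 to 32 and 0 to 42 reads per library.

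**Figure D1:**
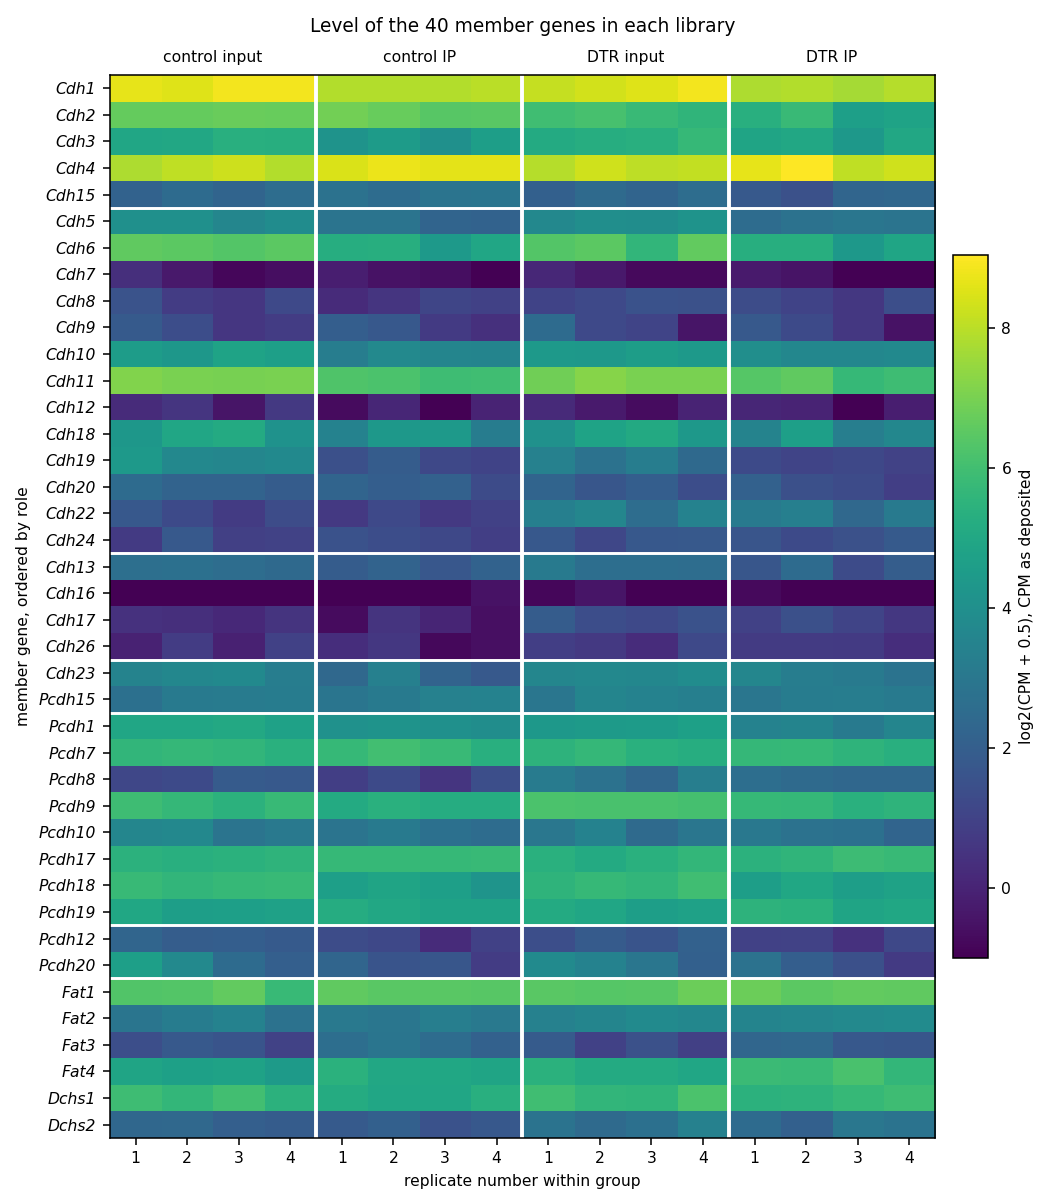
Level of each of the 40 genes (rows, ordered by role, white lines between roles) in each of the 16 libraries (columns), as log2(CPM + 0.5) on the colour scale. Cdh1 and Cdh4 are bright in every library, Cdh16 is dark in every library, and the rows of Cdh22 and Pcdh8 are brighter in the 8 DTR libraries than in the 8 control libraries.

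**Figure D2:**
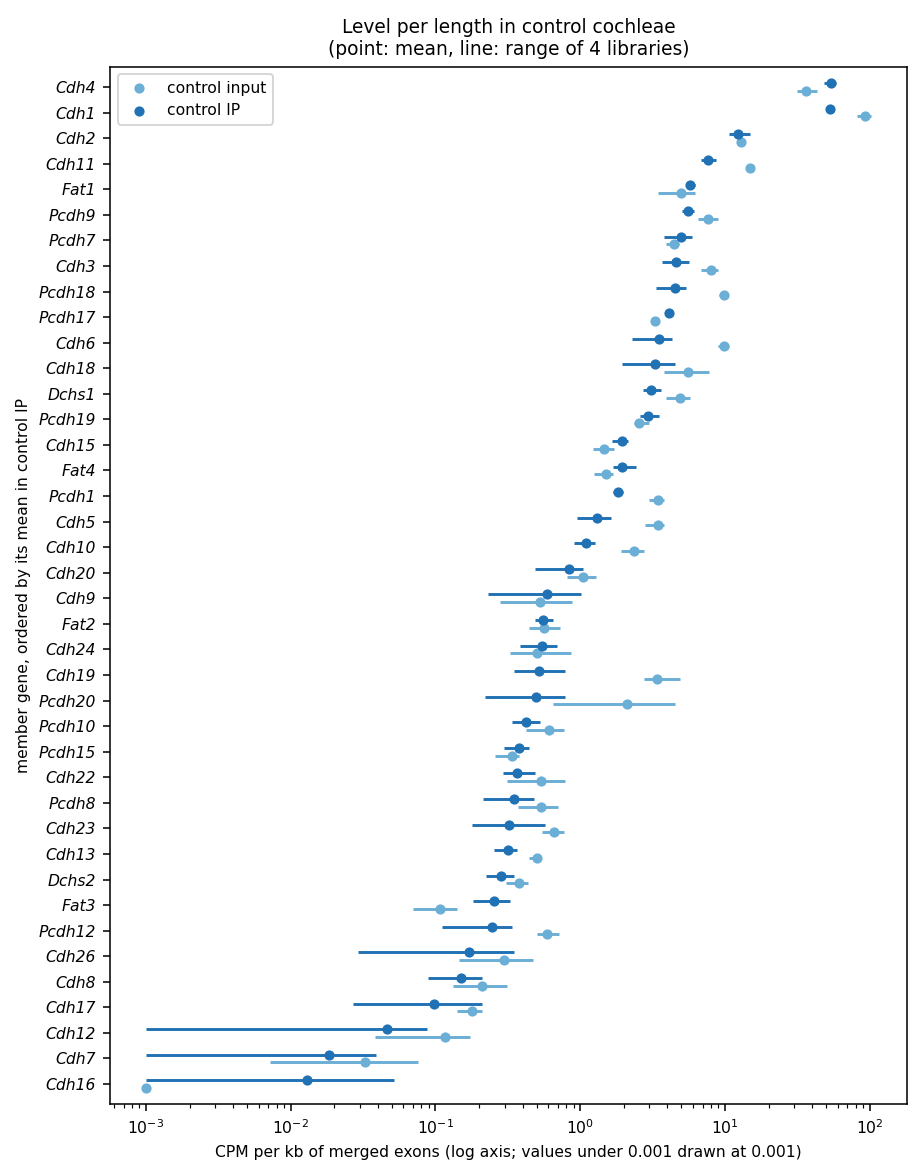
Mean level (points) and range over 4 libraries (lines) of each gene in control input and control IP, in CPM per kb of merged exons on a log axis. Cdh4 and Cdh1 lead in IP, and Cdh19, Cdh5, Cdh6 and Pcdh18 lie further left in IP than in input.

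Most cadherin superfamily members that differed between IP and input were lower in IP. In control cochleae 14 of the 37 tested members were lower in IP and 3 were higher, where 20.7% of all tested genes were lower and 19.3% higher. In DTR cochleae 15 were lower and 3 higher, where the shares of all genes were 20.5% and 18.6%. The median LFC of the 37 members was -0.42 in control and -0.38 in DTR cochleae, against -0.00 and -0.03 over all tested genes. With the additional demand of a fold above 1.5 and libraries that did not overlap, 12 members were lower and 2 higher in control IP (12.3% and 11.8% of all genes), and 11 lower and 1 higher in DTR IP (10.3% and 11.5%). Overlap in this rule was judged on quantile-normalized CPM, so Cdh23 was counted in control IP although its deposited CPM overlapped. In all, 15 members passed the test in both treatments, each in the same direction, and how many of all genes did so was not counted. Since these are bulk libraries, fewer cells of a type and less RNA per cell cannot be told apart here or in any comparison that follows.

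Fewer members differed between DTR and control. In IP, 5 of the 37 were higher in DTR and 3 lower, against 8.44% and 7.3% of all tested genes, and in input 5 were higher and 3 lower, against 7.17% and 5.21%. The split in IP depended on scaling, since 9 were higher and 3 lower with CPM as deposited and 8 higher and 3 lower with centring on the median. Among all 16994 tested genes, both directions together, 2674 passed with quantile normalization, 2746 with CPM as deposited and 2740 with centring. The median LFC over all tested genes was -0.004, 0.054 and 0.010 in the same order. Adding the fold and overlap criteria left 4 higher and 3 lower in IP (4.65% and 4.38% of all genes) and 3 higher and 2 lower in input (4.76% and 3.51%). Cdh22, Pcdh8, Cdh17 and Fat4 were higher, and Cdh2 and Pcdh1 lower, in both IP and input, which came from the same pools. The share of all genes that changed in both sample types was not counted. Criteria adapted from those of the study for IP samples, an absolute LFC of at least 1 with separated libraries, were met in IP by Cdh22, Pcdh8 and Cdh2 (1.12% of all genes higher and 1.34% lower) and in input by Cdh22 (1.34% higher).

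Among type I classical cadherins, Cdh2, which encodes N-cadherin, fell after damage. It measured 119, 105, 85.5 and 88.8 CPM in control IP and 39.9, 56.1, 24.8 and 28.2 in DTR IP (LFC -1.52 ± 0.18, adjusted p = 9.43e-06). Input held 103, 102, 108 and 104 CPM in control and 61.9, 68.95, 55.9 and 47.8 in DTR (LFC -0.83 ± 0.18, adjusted p = 0.00457). Every DTR library lay below every control library of its kind. Control IP and input did not differ beyond their spread (LFC -0.05 (adjusted p = 0.853)), whereas Cdh2 was lower in IP than in input in DTR cochleae (LFC -0.74 (adjusted p = 0.00364)), with DTR IP 2 inside the range of the input libraries. The change in IP minus that in input was -0.69 on the log2 scale, which did not pass the test of the difference (adjusted p = 0.756). The gene lies at chr18:16588877-16809246, minus strand (GRCm38, GENCODE M21, as for all positions here).

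Several markers of supporting cells and GER fell with Cdh2 after damage. Of the 11 on the list, 7 fell in DTR IP against control IP and none rose, among them Lfng (LFC -4.08, adjusted p = 1.18e-11), Hes5 (LFC -3.13, adjusted p = 6.43e-07) and Sox2 (LFC -1.40, adjusted p = 6.11e-07), and in input 5 fell and Otoa rose. The summed level of the list was 17190.0 to 24650.0 CPM in control IP and 10780.0 to 13580.0 in DTR IP, and 10940.0 to 15630.0 and 9207 to 13260.0 in the inputs. Tectb, which encodes a protein of the tectorial membrane, made up 78.6% to 82.4% of the sum in control IP and 73.5% to 77.7% in DTR IP, and without it the sums were 3641 to 4392 and 2512 to 3333 CPM. Without Tectb the inputs held 4114 to 4716 CPM in control and 4279 to 4975 in DTR, ranges that overlapped. The most abundant of the rest were Sparcl1 (means of 2274 CPM in control input and 2425 in DTR input) and Otoa (925.9 and 1228). The 5 that fell in input, Sox2, Lgr5, Lfng, Hes5 and Prox1, were far less abundant, with Lfng the highest in control input at a mean of 74.46 CPM. The part of these markers in the fall of Cdh2 was not tested.

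Cdh1, E-cadherin of epithelia, was lower in IP and showed no difference after damage that passed the test. Its level was 409.8, 372, 466 and 462 CPM in control input and 239, 239.7, 237 and 258 in control IP (LFC -0.73 ± 0.12, adjusted p = 0.000119), and 290.5, 330.2, 381 and 462 in DTR input and 223, 239, 205 and 245 in DTR IP (LFC -0.57 ± 0.12, adjusted p = 0.00135). IP and input did not overlap in either treatment, and the LFC of DTR against control was -0.06 (adjusted p = 0.807) in IP and -0.22 (adjusted p = 0.2998) in input. Cdh1 spans chr8:106603351-106670246, plus strand. Cdh3, P-cadherin (chr8:106510891-106557297, plus strand), lies next to Cdh1 on the chromosome and was likewise lower in IP. It measured 29.9, 31.8, 39.5 and 38.7 CPM in control input against 17.3, 22.3, 16.1 and 24.6 in control IP (LFC -0.81 ± 0.18, adjusted p = 0.00137), and 35.04, 38.4, 39.9 and 53.1 in DTR input against 28.5, 32.1, 20.1 and 32.3 in DTR IP (LFC -0.61 ± 0.18, adjusted p = 0.0113), with no overlap. Cdh3 was 0.43 higher on the log2 scale in DTR than in control IP, which passed only with a replicate block (adjusted p = 0.115 without and 0.0285 with it).

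Cdh4, which encodes R-cadherin (chr2:179442431-179899373, plus strand), was the type I member that was higher in IP. Control input held 227, 271, 315 and 239.5 CPM and control IP 352, 426, 396 and 394 (LFC 0.65 ± 0.16, adjusted p = 0.00397), so that all 4 IP libraries lay above all inputs. In DTR cochleae the inputs held 244, 316, 266 and 281 CPM and the IPs 409, 529, 274 and 321 (LFC 0.55 ± 0.16, adjusted p = 0.0124), and DTR IP 3 lay inside the range of the inputs. Centring on the median took the DTR value below the threshold (LFC 0.39, adjusted p = 0.0684). Cdh4 had an LFC of 0.09 (adjusted p = 0.802) between DTR and control input.

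Cdh15, M-cadherin of skeletal muscle (chr8:122847966-122867397, plus strand), was lower after damage in IP. Control IP held 6.34, 5.38, 6.79 and 6.96 CPM and DTR IP 2.96, 2.31, 4.37 and 4.603 (LFC -0.91 ± 0.22, adjusted p = 0.00796), with no overlap. Input held 3.98, 5.15, 4.28 and 5.54 CPM in control and 3.69, 5.005, 4.24 and 5.604 in DTR, where the ranges overlapped (LFC -0.11 (adjusted p = 0.839)). The change in IP minus that in input was -0.80 on the log2 scale, short of the threshold (adjusted p = 0.801). With a block for the pool, Cdh15 was higher in control IP than in control input (LFC 0.47, adjusted p = 0.0319, and 0.0985 without the block).

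Type II classical cadherins were lower in IP where they differed from input: 5 of the 11 tested in control and 6 in DTR cochleae, with none higher. Cdh19, a cadherin of Schwann cells and their neural crest precursors (chr1:110888326-110977584, minus strand), showed the lowest IP to input ratio of all members tested. It measured 21.04, 12.4, 11.8 and 13.1 CPM in control input and 2.27, 3.35, 1.79 and 1.504 in control IP (LFC -2.37 ± 0.23, adjusted p = 2.14e-07), and 10.1, 6.44, 9.14 and 4.903 in DTR input and 1.86, 1.57, 1.79 and 1.48 in DTR IP (LFC -1.90 ± 0.23, adjusted p = 3.69e-06). All IP libraries lay below all inputs, and Cdh19 was the single member whose LFC of IP against input was beyond 2 in either direction with separated libraries, in control cochleae, where 0.471% of all genes were that much lower. The study set this size as its threshold for enrichment in IP and named none for lower genes, and no member reached it upwards. Cdh19 also fell in DTR input against control input (LFC -0.95 ± 0.23, adjusted p = 0.00845), with no overlap, while in IP it had an LFC of -0.48 (adjusted p = 0.173).

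Several Schwann cell and glia markers moved with Cdh19, and Ncmap moved against it in DTR IP. Of the 9 listed, 7 were lower in control IP than in control input, with Prx at LFC -3.15, adjusted p = 1.46e-09. In DTR IP against DTR input 7 were lower and Ncmap was higher (LFC 0.58, adjusted p = 0.0156). In DTR input against control input 4 fell and none rose (Mbp LFC -1.37, adjusted p = 0.000771). In DTR IP against control IP Mbp fell and Ncmap rose (LFC 0.59, adjusted p = 0.0317). Their summed level was 2460.0 to 4017 CPM in control input, 1360.0 to 2060.0 in DTR input, 852 to 1228 in control IP and 700.0 to 963 in DTR IP. Their part in the values of Cdh19 was not tested.

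Cdh5, VE-cadherin of endothelial junctions (chr8:104101625-104144511, plus strand), held 15.8, 15.8, 11.8 and 14.4 CPM in control input and 6.76, 6.87, 4.23 and 4.02 in control IP (LFC -1.27 ± 0.17, adjusted p = 1.02e-05). DTR input held 12.5, 15.02, 14.8 and 17.2 CPM and DTR IP 5.399, 6.37, 7.25 and 6.81 (LFC -1.15 ± 0.17, adjusted p = 3.71e-05), again with no overlap. Pcdh12, a protocadherin of endothelial cells (chr18:38267089-38284402, minus strand), moved in the same direction, with 4.29, 3.35, 3.55 and 3.05 CPM in control input, 2.03, 1.77, 0.676 and 1.44 in control IP, 2.16, 3.14, 2.55 and 3.81 in DTR input and 1.45, 1.495, 0.861 and 1.74 in DTR IP. Its LFC of IP against input was -0.98 (adjusted p = 0.00342) in control and -0.86 (adjusted p = 0.00882) in DTR cochleae. Of 10 endothelial markers, 8 were lower in control IP and 9 in DTR IP, with Pecam1 at LFC -1.87, adjusted p = 7.93e-08 in control IP. The summed endothelial level was 352 to 411 CPM in control input and 141 to 179.7 in control IP, and 436 to 551 and 209 to 241 in DTR input and IP, and its part in the values of Cdh5 and Pcdh12 was not tested. After damage neither gene passed the test in IP (Cdh5 LFC 0.14 (adjusted p = 0.6499), Pcdh12 LFC -0.22 (adjusted p = 0.607)), while Esam (LFC 1.19, adjusted p = 3.68e-05), Pecam1 and Emcn rose.

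Cdh6, K-cadherin (chr15:13028701-13173675, minus strand), was the most abundant type II cadherin per length after Cdh11 and was lower in IP. It measured 96.3, 89.9, 81.3 and 90.1 CPM in control input and 37.5, 38.6, 20.6 and 30.3 in control IP (LFC -1.51 ± 0.22, adjusted p = 2.25e-05), and 80.8, 91.3, 48.98 and 99.1 in DTR input and 38.7, 39.02, 19.9 and 29.5 in DTR IP (LFC -1.36 ± 0.22, adjusted p = 7.94e-05). Cdh11, which is typical of mesenchyme (chr8:102632095-102785642, minus strand), held 141, 131, 125 and 130.0 CPM in control input and 77.03, 73.5, 60.8 and 61.3 in control IP (LFC -0.93 ± 0.14, adjusted p = 4.17e-05), with 117, 149, 130.1 and 131 and 82.8, 95.5, 53.1 and 59.98 in DTR input and IP (LFC -0.89 ± 0.14, adjusted p = 7.64e-05). IP and input did not overlap for either gene in either treatment. Of 10 mesenchymal markers, 5 were lower and 1 higher in control IP, and 1 was lower and 2 higher in DTR IP, with summed levels of 7771 to 8391 CPM in control input, 5134 to 6363 in control IP, 7696 to 8827 in DTR input and 6624 to 8120.0 in DTR IP, and their part was not tested.

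Cdh10 (chr15:18818947-19014236, plus strand) and Cdh18 are cadherins known mainly from the brain. Cdh10 held 22.8, 19.2, 27.6 and 25.1 CPM in control input and 9.03, 12.7, 11.5 and 10.9 in control IP (LFC -1.04 ± 0.15, adjusted p = 1.85e-05), and 20.5, 19.8, 23.6 and 21.3 in DTR input and 15.1, 11.96, 12.2 and 13.1 in DTR IP (LFC -0.72 ± 0.15, adjusted p = 0.000767), with no overlap. Cdh18 was 16.5 to 33.7 CPM in DTR input and 9.28 to 25.1 in DTR IP, ranges that overlapped, and was lower in IP (LFC -0.84 (adjusted p = 0.0482)), while in control cochleae the LFC of -0.77 passed with the pool block (adjusted p = 0.00382) and not without it (0.0677). Neuronal markers varied widely among libraries of a group, with a summed level of 412 to 1082 CPM in control input and 266 to 613 in control IP, and 4 of 10 were lower in control IP. Whether they bear on Cdh10 and Cdh18 was not tested.

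Cdh22, a type II cadherin first described in pituitary and brain (chr2:165111507-165234853, minus strand), rose after damage more than any other member tested. Control IP held 1.11, 1.804, 1.09 and 1.41 CPM and DTR IP 8.26, 9.51, 4.704 and 8.42 (LFC 1.999 ± 0.25, adjusted p = 1.57e-05). Control input held 2.88, 1.92, 1.16 and 1.99 CPM and DTR input 9.54, 11.6, 5.59 and 10.5 (LFC 1.92 ± 0.25, adjusted p = 2.58e-05). The lowest DTR library lay above the highest control library in both sample types, replicate 3 was the lowest in each of the 4 groups, and IP and input did not differ beyond their spread in either treatment (LFC -0.32 (adjusted p = 0.337) and -0.24 (adjusted p = 0.4905)). Pcdh8, a delta protocadherin also known as paraxial protocadherin or arcadlin (chr14:79766775-79771312, minus strand), rose in parallel. Control IP held 1.32, 1.86, 0.9699 and 2.19 CPM and DTR IP 5.69, 5.02, 4.64 and 4.64 (LFC 1.30 ± 0.25, adjusted p = 0.00104), and control input 1.69, 1.89, 3.17 and 3.001 CPM and DTR input 8.597, 6.38, 4.44 and 9.29 (LFC 1.29 ± 0.25, adjusted p = 0.00123). Control and DTR did not overlap in IP or in input. Exons of Pcdh8 overlap the antisense gene Gm9748, and since the library kit does not mark strand, reads of both loci cannot be told apart.

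The promoters of these genes are shown because both rose in IP and input alike. Each is the RefSeq window from 250 bases before to 50 bases after the start site (GRCm38.p6), 5′ to 3′ on the gene's strand, with matches to the searched motifs in capitals.
Cdh22 (chr2:165234688-165234987, minus strand): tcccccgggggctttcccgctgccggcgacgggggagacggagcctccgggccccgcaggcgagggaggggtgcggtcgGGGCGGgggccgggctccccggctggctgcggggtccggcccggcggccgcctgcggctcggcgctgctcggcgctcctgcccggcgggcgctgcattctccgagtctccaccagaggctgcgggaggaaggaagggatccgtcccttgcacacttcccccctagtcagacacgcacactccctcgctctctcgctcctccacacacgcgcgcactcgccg
Pcdh8 (chr14:79771263-79771562, minus strand): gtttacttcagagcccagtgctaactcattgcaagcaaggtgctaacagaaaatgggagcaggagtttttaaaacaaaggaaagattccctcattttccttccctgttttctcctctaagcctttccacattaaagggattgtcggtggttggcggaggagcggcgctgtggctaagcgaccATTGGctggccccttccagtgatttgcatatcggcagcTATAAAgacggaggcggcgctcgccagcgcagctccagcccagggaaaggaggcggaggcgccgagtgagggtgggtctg
The motifs, searched on both strands, were AP-1 (TGANTCA), CRE (TGACGTCA), EGR (GCGNGGGCG), the TATA box (TATAAA), the CCAAT box (CCAAT, or ATTGG on the other strand) and the GC box (GGGCGG). The Cdh22 window held 38 CpG dinucleotides, more than 95% of the 32851 promoter windows of the genome set, whose median was 7, and a single GC box, which 35.7% of all windows hold. The Pcdh8 window held 14 CpG, a TATA box starting 30 bases before the start site (13.6% of all windows hold one) and a CCAAT box 68 bases before it (37.4%). Neither window held an AP-1 (7.81% of all windows), CRE (1.79%) or EGR (5.55%) match, and the windows had none of the 6 motifs in common. Of the 40 members, 27 had a promoter entry, and Fat4, the other member with an entry that rose in both IP and input, had no match to any of the 6.

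**Figure D3:**
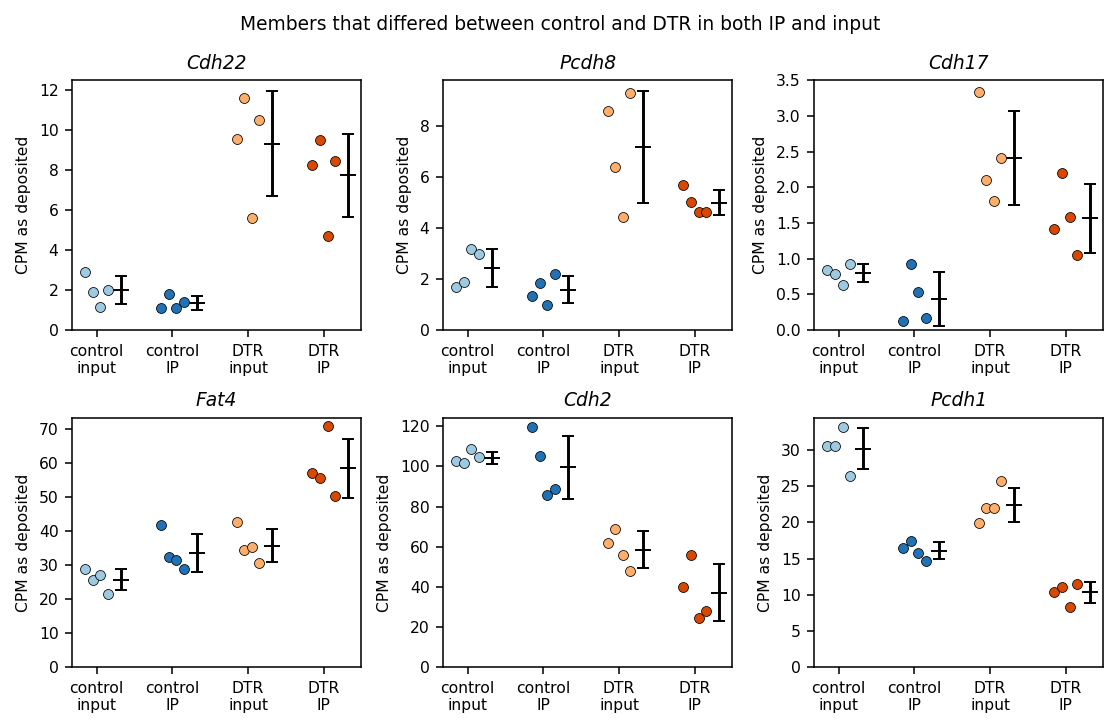
CPM as deposited in each library (points) of the 6 members that passed the test between control and DTR in both IP and input, with the mean and SD of 4 libraries (black). Cdh22, Pcdh8, Cdh17 and Fat4 are higher in DTR, and Cdh2 and Pcdh1 lower.

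Among the other cadherins, Cdh17, the liver-intestine cadherin, which lacks a catenin-binding tail (chr4:11758147-11817895, plus strand), rose from a low level. Control IP held 0.1196, 0.931, 0.529 and 0.164 CPM (4, 32, 18 and 5 reads) and DTR IP 1.41, 2.21, 1.59 and 1.05 (LFC 1.05 ± 0.24, adjusted p = 0.00577). Control input held 0.834, 0.788, 0.629 and 0.931 CPM and DTR input 3.34, 2.11, 1.81 and 2.41 (LFC 0.99 ± 0.24, adjusted p = 0.0103). DTR and control did not overlap in either sample type. The size of the change depended on the method at this level, with LFCs in IP from 0.75 (pseudocount of 1) to 1.76 (edgeR) and 1.78 (DESeq2), and in input from 0.78 (pseudocount of 1) to 1.585 (edgeR), all past the threshold. Cdh13, the membrane-anchored T-cadherin (chr8:118283733-119324921, plus strand), held 5.93, 6.05, 5.49 and 4.97 CPM in control input and 3.32, 4.13, 2.85 and 3.99 in control IP, and 8.09, 5.71, 5.695 and 5.51 in DTR input and 2.73, 5.23, 1.96 and 3.45 in DTR IP. Its IP libraries lay below the inputs in both treatments, and the difference passed in DTR (LFC -0.86 ± 0.23, adjusted p = 0.00595) but not in control cochleae (LFC -0.47 (adjusted p = 0.111)), and the difference between treatments had an adjusted p of 0.999.

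Most macrophage markers and cell division genes rose after damage alongside Cdh22, Pcdh8 and Cdh17. Of 10 macrophage markers 7 rose in IP and 7 in input, with C1qb at LFC 1.36, adjusted p = 3.97e-06 in IP, and the summed level went from 23.6 to 37.2 CPM in control IP to 49.2 to 83.04 in DTR IP, and from 131 to 141 to 188 to 295 in input. All 10 were lower in IP than in input in both treatments. Of 10 cell division genes 9 rose in IP and 7 in input, with Ccnb2 at LFC 2.01, adjusted p = 1.16e-07 in IP, and the summed level went from 57.6 to 99.9 to 151 to 254 CPM in IP and from 127 to 180.5 to 241 to 284 in input. The part of either in the rise of these members was not tested.

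The tip link cadherins differed from each other. Cdh23 (chr10:60302748-60696490, minus strand), the upper part of the tip link, measured 10.7, 11.99, 13.1 and 9.19 CPM in control input and 4.78, 9.75, 4.12 and 3.04 in control IP (LFC -0.9979 ± 0.22, adjusted p = 0.00119), where control IP 2 lay inside the range of the inputs in deposited CPM. DTR input held 11.7, 12.3, 12.2 and 14.2 CPM and DTR IP 11.8, 9.11, 8.12 and 6.61, a difference that passed only with the pool block (LFC -0.50, adjusted p = 0.0784 without and 0.0405 with it). DTR IP was higher than control IP by 0.64 on the log2 scale, again with the block alone (adjusted p = 0.0513 and 0.0229). Pcdh15, the lower part of the tip link (chr10:73099342-74649737, plus strand), held 6.12, 8.28, 8.56 and 8.93 CPM in control input and 7.09, 8.06, 10.1 and 10.6 in control IP, with 7.27, 11.4, 10.5 and 9.47 and 7.198, 8.90, 9.04 and 8.29 in DTR input and IP. No comparison of Pcdh15 passed (LFC 0.21 (adjusted p = 0.438) for control IP against control input).

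Of 12 hair cell markers, 8 were lower in control IP and 7 in DTR IP, with Otof at LFC -2.67, adjusted p = 1.53e-08 in control IP, while Espn and Atoh1 were higher. In DTR IP against control IP, Slc17a8 (LFC 1.42, adjusted p = 0.000645), Otof, Myo6 and Myo15 rose and Atoh1 fell. The summed hair cell level was 734 to 948 CPM in control input, 276 to 395 in control IP, 841 to 1041 in DTR input and 389.9 to 512 in DTR IP, and its part in the values of Cdh23 was not tested. Of 12 genes of the tip link and transduction complex, 6 were lower and 1 higher in IP in each treatment, led by Lhfpl5 (LFC -2.25, adjusted p = 2.5e-09 in control), a subunit that couples Pcdh15 to the channel, and Ush1g (LFC 1.58, adjusted p = 0.000186 in control), a scaffold at the upper end of the tip link, which was the higher one. Ush1c, which encodes harmonin, the scaffold bound by Cdh23, fell in DTR IP (LFC -1.12, adjusted p = 6.19e-05) and in DTR input (LFC -0.81, adjusted p = 0.00178), where Tmc2 also fell, and no gene of this list rose.

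Delta protocadherins included lower, higher and level genes. Pcdh1, a protocadherin of epithelia (chr18:38185914-38212053, minus strand), measured 30.6, 30.6, 33.2 and 26.4 CPM in control input and 16.4, 17.4, 15.8 and 14.7 in control IP (LFC -0.88 ± 0.13, adjusted p = 2.42e-05), and 19.97, 21.97, 22.1 and 25.7 in DTR input and 10.3, 11.1, 8.38 and 11.5 in DTR IP (LFC -1.11 ± 0.13, adjusted p = 2.36e-06). The 4 groups did not overlap one another, so that Pcdh1 was lower in IP and, within each sample type, lower in DTR, with LFC -0.67 (adjusted p = 0.00114) in IP and LFC -0.44 (adjusted p = 0.0275) in input. The call in input was lost without any single one of DTR input 1, DTR input 2, control input 1, control input 2 or control input 3 (adjusted p = 0.0637 to 0.108).

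Pcdh18 (chr3:49743296-49757325, minus strand) held 54.2, 48.8, 52.7 and 54.3 CPM in control input and 24.8, 28.9, 25.1 and 17.9 in control IP (LFC -1.13 ± 0.12, adjusted p = 1.13e-06), and 46.1, 53.2, 48.8 and 61.7 in DTR input and 24.4, 30.8, 24.2 and 27.1 in DTR IP (LFC -0.9995 ± 0.12, adjusted p = 5.86e-06). Input exceeded IP in every pool, and DTR against control did not pass the test, with an LFC of 0.11 (adjusted p = 0.624) in IP and -0.02 (adjusted p = 0.953) in input. Pcdh9 (chr14:93013410-93890679, minus strand) was lower in IP and higher after damage. Its values were 60.3, 50.7, 43.9 and 53.4 CPM in control input, 34.4, 41.5, 37.3 and 36.9 in control IP, 73.2, 70.8, 71.9 and 66.8 in DTR input and 51.96, 51.3, 41.6 and 46.2 in DTR IP, with no overlap between IP and input or between treatments. The LFC of IP against input was -0.47 (adjusted p = 0.00147) in control and -0.59 (adjusted p = 0.000228) in DTR cochleae. DTR exceeded control in input (LFC 0.43 ± 0.10, adjusted p = 0.00947), and in IP the LFC of 0.31 passed with the replicate block alone (adjusted p = 0.0507 without and 0.0359 with it).

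Pcdh7, Pcdh10, Pcdh17 and Pcdh19, delta protocadherins studied mainly in neurons, passed no comparison. Pcdh17 and Pcdh19 had positive LFCs of IP against input, and the replicate block brought Pcdh17 past the threshold in control (LFC 0.29, adjusted p = 0.0589 without and 0.02098 with it) and in DTR cochleae (LFC 0.25, 0.108 and 0.0453), and Pcdh19 in DTR cochleae (LFC 0.28, 0.131 and 0.0265). Control IP held 52.1 to 54.2 CPM of Pcdh17, 26.9 to 36.5 of Pcdh19, 39.95 to 63.1 of Pcdh7 and 5.36 to 8.44 of Pcdh10. Pcdh20, of the other nonclustered protocadherins, was lower in IP but spread widely within groups, from 3.57 to 24.9 CPM in control input, 1.21 to 4.31 in control IP, 3.71 to 13.4 in DTR input and 1.15 to 6.43 in DTR IP. It passed the test with overlapping libraries (LFC -1.56 (adjusted p = 0.0195) in control and -1.36 (adjusted p = 0.0408) in DTR cochleae), and input exceeded IP within each of the 8 pools.

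Fat3 and Fat4 were higher in IP. Fat3, a Fat cadherin studied in retinal neurons (chr9:15910189-16501285, minus strand), held 2.15, 3.04, 2.54 and 1.501 CPM in control input and 5.68, 6.98, 5.35 and 3.89 in control IP (LFC 1.16 ± 0.23, adjusted p = 0.000543), with no overlap, and 3.22, 1.404, 2.298 and 1.37 in DTR input and 4.47, 4.699, 2.95 and 2.73 in DTR IP (LFC 0.78 ± 0.23, adjusted p = 0.0117), where the ranges overlapped. Adjusting for gene length took the DTR value to an adjusted p of 0.055 (LFC 0.57), no longer past the threshold. In DTR IP against control IP its LFC of -0.64 passed with the replicate block (adjusted p = 0.0249) and not without it (0.0703).

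Fat4, the receptor partner of Dchs1 in planar cell polarity (chr3:38886940-39011985, plus strand), differed in all 4 comparisons. Control input held 28.8, 25.7, 26.9 and 21.5 CPM, control IP 41.7, 32.4, 31.5 and 28.9, DTR input 42.5, 34.4, 35.2 and 30.7 and DTR IP 56.97, 55.4, 70.8 and 50.4. DTR IP was above all other groups, and control IP above control input, without overlap. DTR IP exceeded control IP (LFC 0.77 ± 0.14, adjusted p = 0.000661) and DTR input (LFC 0.67 ± 0.14, adjusted p = 0.000828). The smaller differences were near the threshold: control IP exceeded control input by 0.35 on the log2 scale (adjusted p = 0.0485), and DTR input exceeded control input by 0.45 (adjusted p = 0.0379). The former was lost without any single one of DTR IP 1, DTR IP 2, DTR IP 4, DTR input 2, DTR input 3, control IP 1, control IP 3, control IP 4, control input 2, control input 3 or control input 4 (adjusted p = 0.0502 to 0.168), and the latter without any single one of DTR input 1, DTR input 2, DTR input 3, control input 2, control input 3 or control input 4 (adjusted p = 0.05296 to 0.137). The former was also lost with the compared groups alone (adjusted p = 0.05299) or no filter (0.0822), and the latter with no filter (0.06098) or an adjustment for gene length (0.0622). Fat4 exons overlap the antisense genes C230034O21Rik and Gm43539, whose reads cannot be separated without strand.

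Dchs1, the ligand of Fat4 (chr7:105752990-105787654, minus strand), was lower in control IP than in control input and, among IPs, higher in DTR. It measured 60.5, 50, 63.7 and 43.4 CPM in control input and 35.6, 30.03, 30.7 and 39.95 in control IP (LFC -0.67 ± 0.17, adjusted p = 0.00363), and 61.9, 48.5, 47.2 and 73.4 in DTR input and 42.9, 45.1, 52.2 and 60.1 in DTR IP (LFC -0.22 (adjusted p = 0.329)). DTR IP lay above control IP in deposited CPM (LFC 0.52 ± 0.17, adjusted p = 0.0425), a call that was lost without any single one of DTR IP 3, DTR IP 4, DTR input 1, control IP 1, control IP 2, control IP 3 or control input 2 (adjusted p = 0.0501 to 0.128). It was also lost with edgeR (adjusted p = 0.0561), the compared groups alone (0.0674), no filter (0.0904) or an adjustment for gene length (0.143). In input the LFC of DTR against control was 0.07 (adjusted p = 0.873). Its exons overlap the antisense gene Gm15645.

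Some mesenchymal markers rose in IP after damage, as Fat4 and Dchs1 did. In DTR IP against control IP, 5 of the 10 (Dcn, Pdgfra, Col1a2, Tbx18 and Pou3f4) were higher and none lower, with LFCs of 0.35 (Dcn) to 0.67 (Tbx18), and in input Dcn was higher and none lower. Their summed level was 5134 to 6363 CPM in control IP and 6624 to 8120.0 in DTR IP, ranges that did not overlap, and 7771 to 8391 and 7696 to 8827 in the inputs, which did. In control IP against control input 5 of these markers were lower and 1 higher, where Fat4 was higher and Dchs1 lower. In DTR IP against DTR input 1 was lower and 2 higher, where Fat4 was higher and Dchs1 did not pass. The part of these markers in the values of Fat4 and Dchs1 was not tested.

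Fat1, a regulator of actin at cell contacts (chr8:44935447-45052257, plus strand), passed no comparison. It held 78.6, 81.2, 97.7 and 54.3 CPM in control input, 96.95, 88.6, 87.97 and 85.8 in control IP, 88.9, 83.3, 85.5 and 110.5 in DTR input and 109, 91.4, 99.1 and 96.3 in DTR IP, and its largest LFC was 0.27 (adjusted p = 0.254), for DTR input against control input. Fat2 and Dchs2 had higher values in DTR. The LFC of DTR IP against control IP was 0.52 (adjusted p = 0.0503) for Fat2 and 0.66 (adjusted p = 0.0542) for Dchs2, and with the replicate block both passed (adjusted p = 0.0118 and 0.0326), as did Fat2 in input (LFC 0.51, adjusted p = 0.0678 without and 0.0168 with the block).

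The remaining type II cadherins and Cdh26 had control IP means between 0.512 CPM (Cdh26) and 3.38 CPM (Cdh20), with Cdh8, Cdh9 and Cdh24 between them, and none passed a comparison. Cdh20 was lower in DTR IP than in control IP with the replicate block (LFC -0.67, adjusted p = 0.00565, and 0.0723 without it). Across all comparisons 24 of the 37 tested members passed at least once and 13 did not, where 56.1% of all tested genes passed at least once. With the block, 10 members were higher and 5 lower in DTR IP against control IP, where 12.2% of all genes were higher and 11.1% lower, and no member that passed without it was lost.

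**Figure D4:**
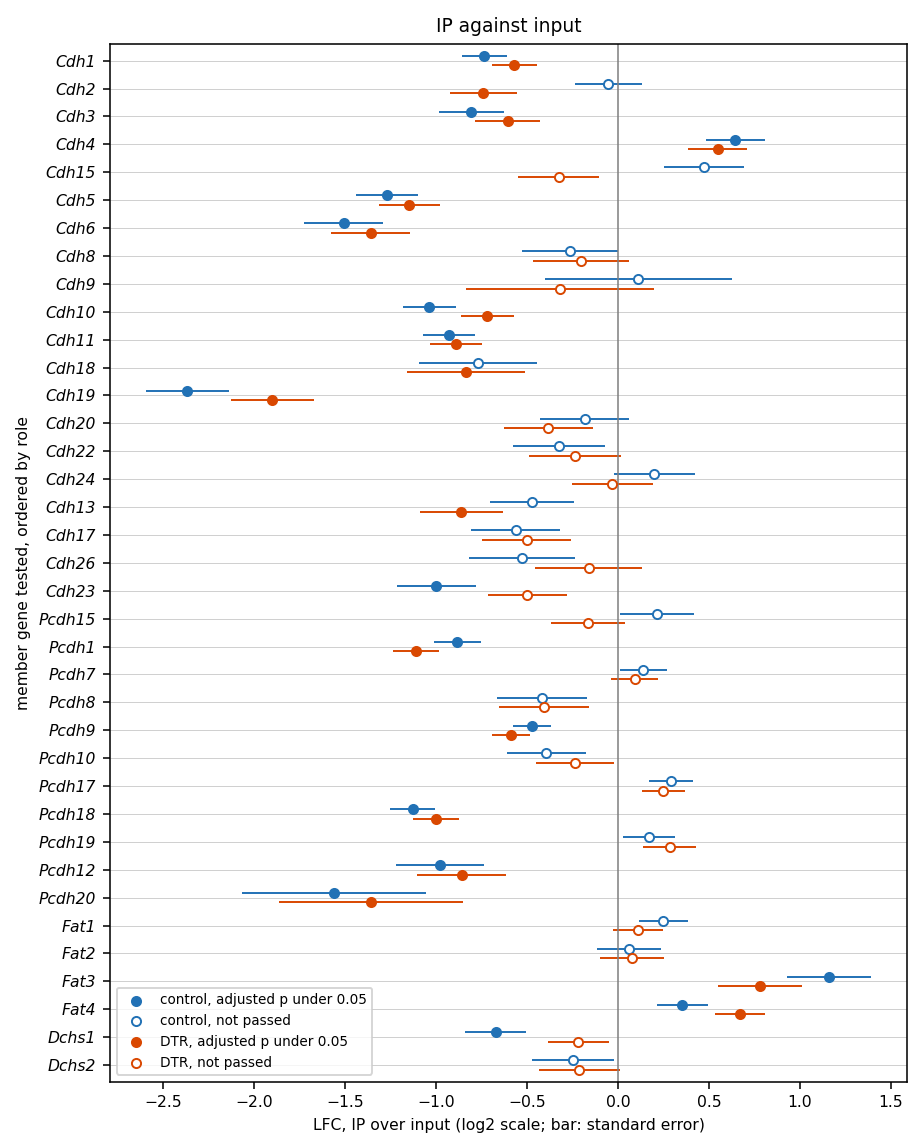
LFC of IP over input for each tested member, with standard errors, in control and DTR cochleae, and filled points for an adjusted p under 0.05. Most filled points lie left of 0 (lower in IP), and those right of 0 are Cdh4, Fat3 and Fat4.

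**Figure D5:**
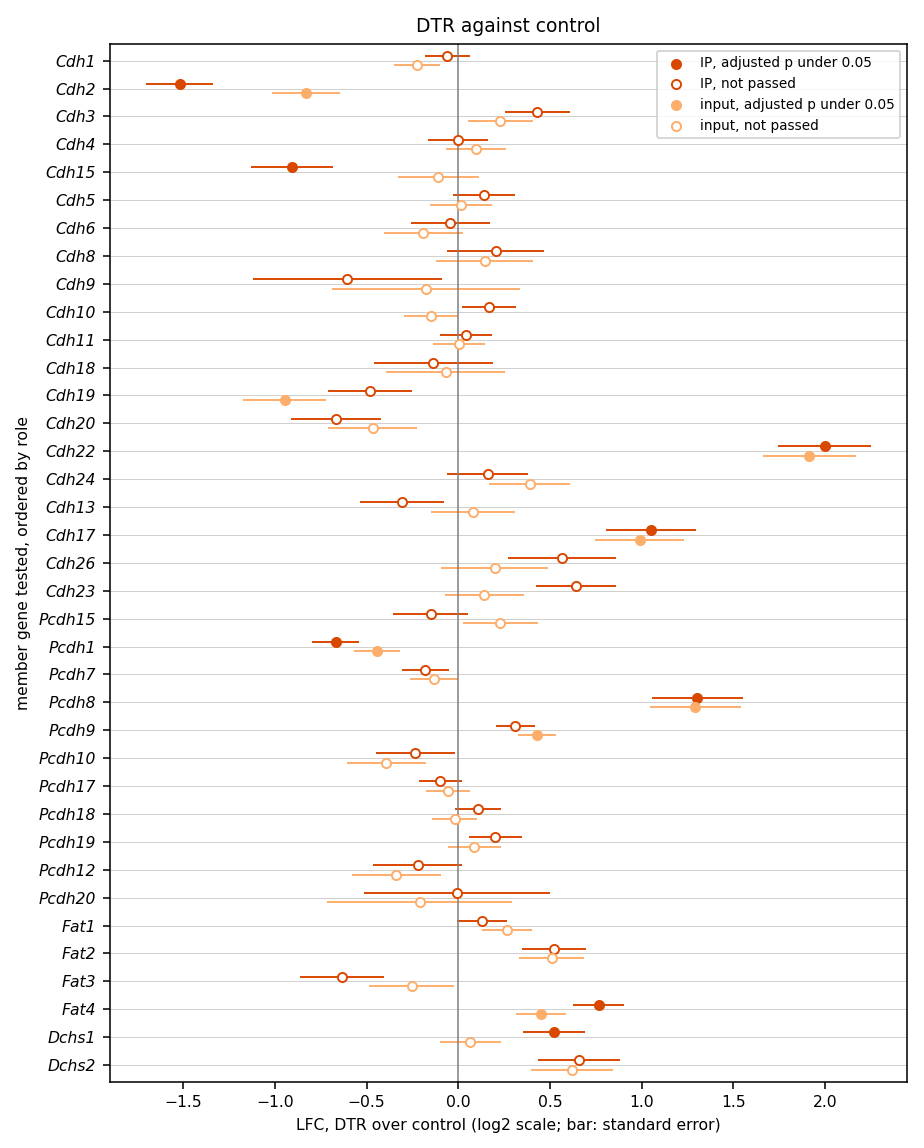
LFC of DTR over control for each tested member, with standard errors, in IP and in input, and filled points for an adjusted p under 0.05. Cdh22, Pcdh8 and Cdh17 lie furthest right in both, and Cdh2 furthest left in IP.

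Whether damage changed a member differently in IP and in input was tested by the interaction of damage and sample type. No member passed (smallest adjusted p = 0.756, limma), and neither did any with edgeR, with DESeq2 or with the replicate block. At an unadjusted p under 0.05 there were 2 members, Cdh2 and Cdh15, among 870 genes in all, and 2 genes of the 16994 passed after adjustment (0.0118%).

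Cytoplasmic and junctional partners of these adhesion proteins moved in both directions between IP and input. Of 17 catenins and junction partners, 8 were lower and 6 higher in control IP. Vcl, which encodes vinculin, an actin linker, was lower (LFC -1.91, adjusted p = 2.49e-07). So were Ctnna3 (LFC -1.34, adjusted p = 0.00054) and Ctnna2 (LFC -1.16, adjusted p = 0.00255), which encode alpha-catenins. Ctnna3 had a low level, with means of 1.228 CPM in control input and 0.2059 in control IP. Its difference did not pass in DTR IP against DTR input (LFC -0.47, adjusted p = 0.1745). Nectin2, an immunoglobulin-type adhesion protein of adherens junctions, was higher (LFC 1.48, adjusted p = 1.52e-08). In DTR IP 7 were lower and 5 higher than in input. After damage Afdn, the nectin-binding scaffold afadin, rose in IP (LFC 0.48, adjusted p = 0.00636), and Ctnnd2 (LFC -0.87, adjusted p = 3.62e-05), Nectin3 and Nectin4 fell, while in input Ctnnd2 and Nectin3 fell and none rose.

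Of 5 transcriptional repressors of Cdh1, Snai1 (LFC 1.85, adjusted p = 1.65e-07 in control) and Snai2 were higher and Zeb2 lower in IP in both treatments. Zeb1 rose in DTR IP against control IP (LFC 0.52, adjusted p = 0.0161), the single gene of this list that passed between treatments. Of 11 partners of Fat, Dachsous and protocadherins, 4 were higher and 6 lower in control IP, and 3 and 6 in DTR IP. Fjx1, a Golgi kinase that modifies Fat and Dachsous binding, was higher (LFC 1.03, adjusted p = 8.36e-07 in control), and Cyfip2, a subunit of the WAVE complex, was lower (LFC -1.61, adjusted p = 1.28e-08 in control). Wasf1, another WAVE subunit, fell after damage in IP (LFC -0.96, adjusted p = 8.16e-06) and in input (LFC -0.60, adjusted p = 0.00135) and was the only gene of these 11 to pass between treatments.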

How the data were processed

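RNA of input and ribosome IP was measured in 16 libraries. The authors amplified the RNA with SMART-Seq v4, which does not mark strand, aligned the reads to GRCm38 and counted them per gene with HTSeq. The study's methods name HISAT2 as the aligner and the submitters' processing notes name TopHat, and the annotation release is not given in the sources used here. The deposited values are CPM, counts per 1000000 reads over genes. All CPM values came out as whole reads within 0.01 reads once each library's step was known (100.0% of values), which gave the depth and allowed count tests as alternatives. Samples were grouped by the labels, and the file headers number the replicate titled 4 as 6.

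CPM were quantile-normalized, log2-transformed with a pseudocount of 0.5 and fitted in limma (version 3.58.1, under R 4.3.3), its mean-variance trend switched on, over all 16 libraries and group as the only term. A gene was tested when 1 or more groups had 0.5 CPM or above in each of their 4 replicates, with Benjamini-Hochberg adjustment over all of them. Tests are two-sided. Alternatives included edgeR 4.0.16 and DESeq2 1.42.0 on the recovered reads, other scalings, pseudocounts and filters, an adjustment for gene length, the compared groups alone, each library left out, and the replicate number or pool as a block. The block was used because libraries with the same number deviated together from their group means in every pair (r = 0.288 to 0.56). Pairs with different numbers had r of -0.369 to 0.290. The highest of these, control IP 4 with control input 3, slightly exceeded control IP 4 with control input 4 (0.288). Input and IP share a pool by the study's methods, and control and DTR of a number share no stated source. No replicate pair agreed within sampling noise (chi-square per gene 22.3 to 98.2). Separation follows the study, the lowest value of the higher group over the highest of the lower, above 1.5, with low values raised to 1.08 CPM, and was applied here in both directions and also to input.

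Members given library by library are those that passed with a fold above 1.5 and no overlap in any comparison, and Cdh1, Cdh2, Cdh23, Pcdh15, Fat1, Fat4 and Dchs1 whatever their result. From each partner list at most 4 genes are named for their IP against input values, the largest changes that passed. Partners behind a count of 5 or fewer between DTR and control are named too, and these were chosen after their values were seen. The members and lists were chosen with earlier results of these data known. A gene of the Schwann cell and glia list is not reported here and was left out of its counts and sums. Exon lengths and positions are from GENCODE M21, promoter sequences from RefSeq. The fit was tested on simulated data. Counting error alone sets the limit of 3 reads.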

Additional observations from a re-analysis of the deposited data

Results flagged for a closer look

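In 96 groups of 4 libraries examined for the named members, 3 had a library far from the others, and chance flags about 1 in 20 groups. Cdh1 in control IP replicate 4 was 257.7 CPM, against 237 to 239.7 in the other replicates. Cdh19 in control input replicate 1 was 21.0 CPM, with the next library at 13.1. Cdh13 in DTR input replicate 1 was 8.09 CPM, with the next at 5.71.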

How the results depend on the processing

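Of 48 LFCs of the named members that passed the test, 42 passed in each alternative run, which were 27 (16 of them leaving out a library), or 26 for Cdh17, not kept at 2 CPM. The other 6 were lost in some, and none reversed. The 6 were Fat4 in control IP against control input and in DTR input against control input, Dchs1 in DTR IP against control IP, Pcdh1 in DTR input against control input, and Cdh4 and Fat3 in DTR IP against DTR input. In DTR IP against control IP the members higher on adjusted p numbered 5, and 9 with CPM as deposited, 8 with at least 2 CPM, 8 with centring on the median and 10 with the replicate block, which gave 5 lower in place of 3. In control IP against control input 3 were higher, and 6 with the gene length adjustment and 5 with the block, and with the fold and no overlap 2, and 1 with CPM as deposited or centred. In DTR IP against DTR input 3 were higher and 5 with the block. All tested genes passing in either direction numbered 2674 in DTR IP against control IP. There they numbered 2746 with CPM as deposited, 2371 (of 14216) with at least 2 CPM, 2740 with centring and 3956 with the block. In control IP against control input they numbered 6787, 6826 (of 16933) with the gene length adjustment and 8299 with the block. In DTR IP against DTR input they numbered 6656, and 8183 with the block. The block moved no other count of members by over 1.5 times and lost no call. Leaving out a library gave 2 to 4 higher and 13 to 15 lower members in control IP against control input (1 to 2 and 12 to 13 with the fold and no overlap, the 1 without control input 1), 3 to 4 and 13 to 16 in DTR IP against DTR input (1 to 2 and 9 to 15, the 2 without DTR IP 4, DTR input 1 or DTR input 2), 4 to 7 and 3 to 4 in DTR IP against control IP (4 to 6 and 3 to 4), and 4 to 5 and 2 to 4 in DTR input against control input (3 to 4 and 2). The causes were not tested. Cdh7, Cdh12 and Cdh16 were too low to test, since none reached 0.5 CPM in all 4 replicates of any group.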

Other observations

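The replicate number went with the level of some members in all 4 groups. For 3 of 37 tested members (8.11%), 1 number was the highest and another the lowest in all 4 groups, against 1.04% of all tested genes. These were Pcdh20, Cdh20 and Pcdh7. Pcdh20 measured 24.9 CPM in control input 1 and 3.57 in control input 4, 4.31 and 1.21 in control IP 1 and 4, 13.4 and 3.72 in DTR input 1 and 4, and 6.43 and 1.15 in DTR IP 1 and 4, numbers 1 being the highest and 4 the lowest of each group. Cdh20 had the same extremes, at 5.15 and 3.26, 4.22 and 1.96, 4.20 and 2.10, and 3.82 and 1.31 CPM in the same order of groups. Pcdh7 was highest in number 2, at 51.1, 63.1, 50.9 and 52.9 CPM, and lowest in number 4, at 41.5, 39.95, 37.5 and 39.6 CPM.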
